A study of Mus musculus with 12 samples.

Results

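The miR-29 family comprises the microRNAs (miRNAs) miR-29a, miR-29b and miR-29c, and each was measured by 1 assay among 750 miRNA assays on the panel. The assays were chosen by name: species prefix and arm suffix were dropped, miR-29a, miR-29b or miR-29c had to remain, and names with a starred (#) strand were left out. All 3 assays had a ratio, as had 566 of the 750. All 3 carry human names (hsa) and none a mouse name.

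The RNA came from hand-picked pancreatic islets, the small endocrine organs in which beta cells make insulin. Donors were male C57BL/6 mice aged 2 to 3 months, whose mothers received either the low-protein diet LP0.5 or the control diet during the whole of pregnancy. By the labels there were 6 samples from LP0.5 and 6 from Control offspring. The labels give no diet for the offspring themselves and do not say whether a sample is 1 animal or a pool, and the islets were kept overnight in culture medium before RNA isolation. TaqMan real-time PCR, which follows amplification with a fluorescent probe for each miRNA, was run on 846 spots in 16 blocks. The blocks form 2 assay sets, A and B, and each set has its own control spots.

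MiRNAs pair with messenger RNAs mainly through their seed, the bases near the 5′ end, and lower the output of those messages. The miR-29 family is known for repressing collagens and other matrix genes and the DNA methyltransferases Dnmt3a and Dnmt3b. In mouse beta cells it is known to keep down Slc16a1, which encodes a lactate and pyruvate transporter that beta cells normally lack, and the survival factor Mcl1. None of these targets was measured here.

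The mature sequences are shown because they set what the 3 miRNAs share and how they differ; the sequences the assays were built for were not analysed here. They are mouse RefSeq entries of build GRCm38.p6, printed 5′ to 3′ with the seed (bases 2 to 8) in capitals; all 3 members were matched by name.
miR-29a-3p: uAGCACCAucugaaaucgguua
miR-29b-3p: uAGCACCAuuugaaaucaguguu
miR-29c-3p: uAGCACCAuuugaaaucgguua
The seed AGCACCA is the same in all 3, and no other mature name in the RefSeq table carried it. Counted from the 5′ end, miR-29a and miR-29c differed at 1 of 22 positions, C10U from miR-29a to miR-29c. From miR-29a to miR-29b, 4 of the first 22 positions differed, C10U, G18A, U21G and A22U. From miR-29b to miR-29c, 3 differed, A18G, G21U and U22A, and miR-29b is 1 base longer (23 against 22). MiR-29b alone of the 3 ends in AGUGUU (bases 18 to 23), a stretch known from human cells to direct miR-29b to the nucleus; on the mature strand, 0.715% of 1679 mature names in the RefSeq table hold these letters. Whether the miR-29a and miR-29c assays each read only their own sequence was not tested.

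The 4 hairpins lie in 2 pairs. Mir29b-2 (chr1:195037040-195037120) and Mir29c (chr1:195037547-195037634) are on the plus strand of chromosome 1, with 426 bases between them. Mir29a (chr6:31062660-31062747) and Mir29b-1 (chr6:31063023-31063093) are on the minus strand of chromosome 6, with 275 bases between them. Mature miR-29b is the same from both of its hairpins, so its single assay cannot tell the chromosome 1 copy from the chromosome 6 copy.

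The 3 members lay close to 1, with miR-29a nearest and miR-29b lowest. The authors' deposited table holds 1 ratio per spot under a heading that puts low-protein over control, so values over 1 stand for more of the miRNA in LP0.5 islets. It gives 1.04 for miR-29a. For miR-29c the authors' deposited table gives 0.905, and for miR-29b it gives 0.787. By these values LP0.5 was above Control for 1 member and below for 2. No replicate values stand behind these ratios here, so none has an error, a p-value or a replicate check, and none can be called changed. Fewer cells of a type and less RNA per cell cannot be told apart in such bulk RNA.

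The direction rests on the heading. The study is known for naming miR-199a-3p as raised in low-protein islets, whereas the authors' deposited table has 0.422 for it, which by the heading is lower in LP0.5. How that naming was normalized, and on which samples, is not known here, and miR-199a-3p alone does not settle the direction. Other miRNAs that the study names were not set against the heading, and they could point either way. If the ratio runs the other way, the members read as 0.964 for miR-29a, 1.10 for miR-29c and 1.27 for miR-29b, LP0.5 over Control. Sizes and distances between members are the same either way.

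**Figure D1:**
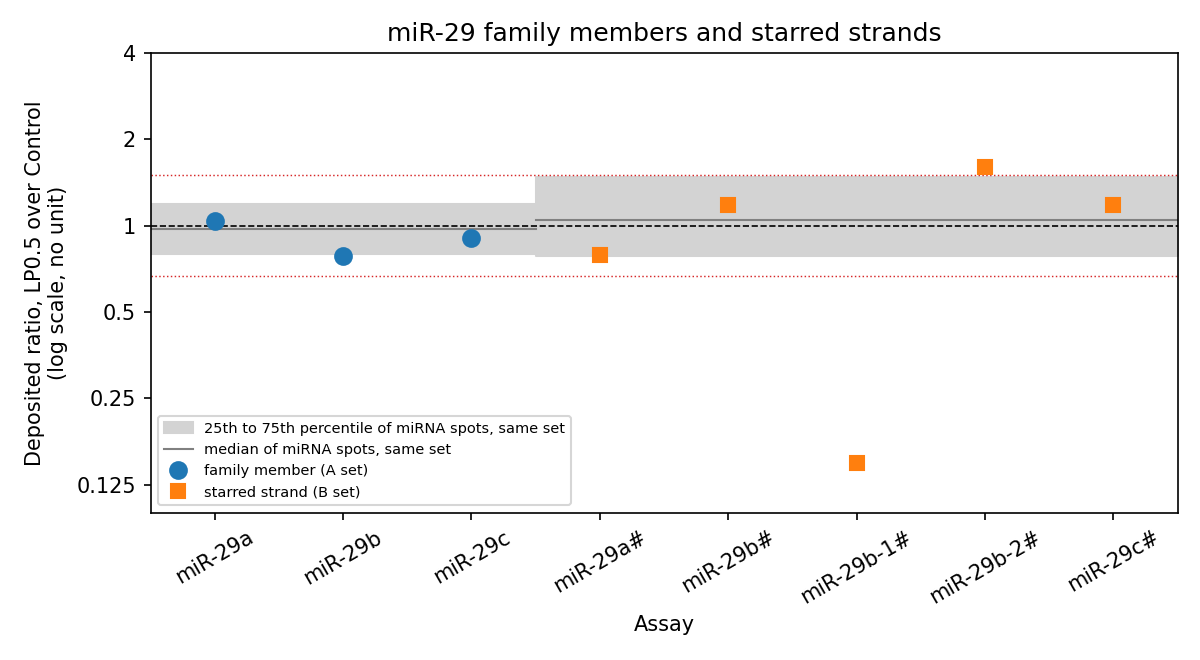
Deposited ratio of LP0.5 over Control on a log scale for the 3 members (circles, A set) and the 5 starred strands of the miR-29 hairpins (squares, B set), 1 spot each, with no error available. Grey bands run from the 25th to the 75th percentile of the miRNA spots of the same set, and red dotted lines mark 1.5-fold from 1; the members lie between 0.787 and 1.04, while the starred strands run from 0.149 to 1.60.

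Against the other miRNAs of the A set, which holds all 3 members, the family sat in the middle and, by the heading's direction, the lower middle. The median ratio of the 304 A-set spots with a value was 0.976, and the 25th and 75th percentiles were 0.796 and 1.19. The family median was 0.905. MiR-29a ranked 174 of 304 from the lowest, miR-29c ranked 125 and miR-29b ranked 75. MiR-29a and miR-29c thus lay between the 25th and 75th percentiles and miR-29b just under the 25th. With the ratio turned, miR-29a would rank 131, miR-29c 180 and miR-29b 230 of 304, so the family would sit in the middle and upper middle.

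None of the 3 members (0 of 3) was at least 1.5-fold from 1, a distance reached by 28.9% of A-set spots and 35.3% of all miRNA spots. For being listed below 1, the count was 2 of 3, beside 52.3% of A-set spots and 49.1% of all miRNA spots. Both counts are those of 3 related sequences, not of replicates. MiR-29b was farther from 1 than 172 of the 304 A-set spots, miR-29c than 74 and miR-29a than 26.

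The miRNAs next to each member in the order of A-set ratios were taken by position alone. For miR-29a the authors' deposited table puts miR-574-3p at 1.03 and miR-495 at 1.04 on either side. Around miR-29c the authors' deposited table has miR-337-5p at 0.905 and the starred strand miR-335# at 0.915. Around miR-29b the authors' deposited table has miR-376a at 0.783 and the muscle-linked miR-133b at 0.794. A single ratio per miRNA cannot show whether any of these follow a member across samples.

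**Figure D2:**
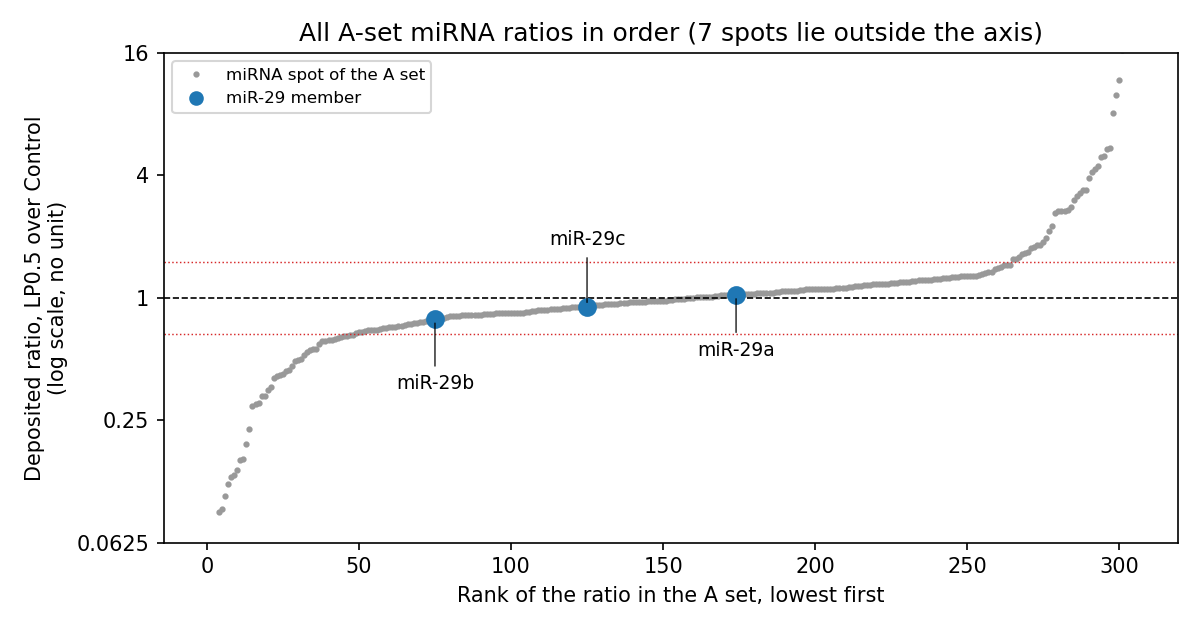
Ratio of LP0.5 over Control on a log scale for the A-set miRNA spots against rank, lowest first, with the 3 members as blue circles; 7 spots fall outside the axis. The members stand at ranks 75, 125 and 174 of 304, on the flat part of the curve inside the red dotted 1.5-fold lines.

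Distances within the family were below the median distance between A-set spots, a scale that includes extreme ratios. In the authors' deposited table the A-set ratios run from 0.0209 for miR-551b to 3.63e+07 for miR-294. No spot was left out for a low level, since levels were not analysed. MiR-29a exceeded miR-29b in ratio by 1.32-fold and miR-29c by 1.15-fold, and miR-29c exceeded miR-29b by 1.15-fold. Any 2 miRNA spots of the A set lay a median of 1.5-fold apart. On the panel 38 miRNA names had a pair of assays each, and the ratios of such a pair differed by a median of 1.31-fold. Names were paired without species prefix and over both sets, so a pair could cross from A to B, as for miR-143. The members all lie in the A set under human names, so this scale is not like for like. For 20 of these 38 pairs the assays of 1 name lay closer together than miR-29a and miR-29b, and for 10 pairs closer than miR-29c to either of the others. The order of the 3 ratios is therefore given as listed, and neighbours in it are not shown to differ.

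The small RNA controls give a second scale. U6, a spliceosomal RNA, had ratios with a mean log2 of 0 over the 8 spots of each set, so the deposited ratios are relative to it. In the A set the 8 U6 spots of the authors' deposited table run from 0.961 to 1.02. The other 4 controls were mostly above 1. Their A-set medians in the authors' deposited table were 1.21 for snoRNA135, 1.10 for snoRNA202, 1.09 for U87 and 1.19 for Y1. MiR-29a lay within the range of the snoRNA135, U87 and Y1 spots, miR-29c within that of the snoRNA135 spots alone, and miR-29b below every A-set control spot. The lowest of those was 1 snoRNA135 spot, at 0.850 in the authors' deposited table.

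**Figure D3:**
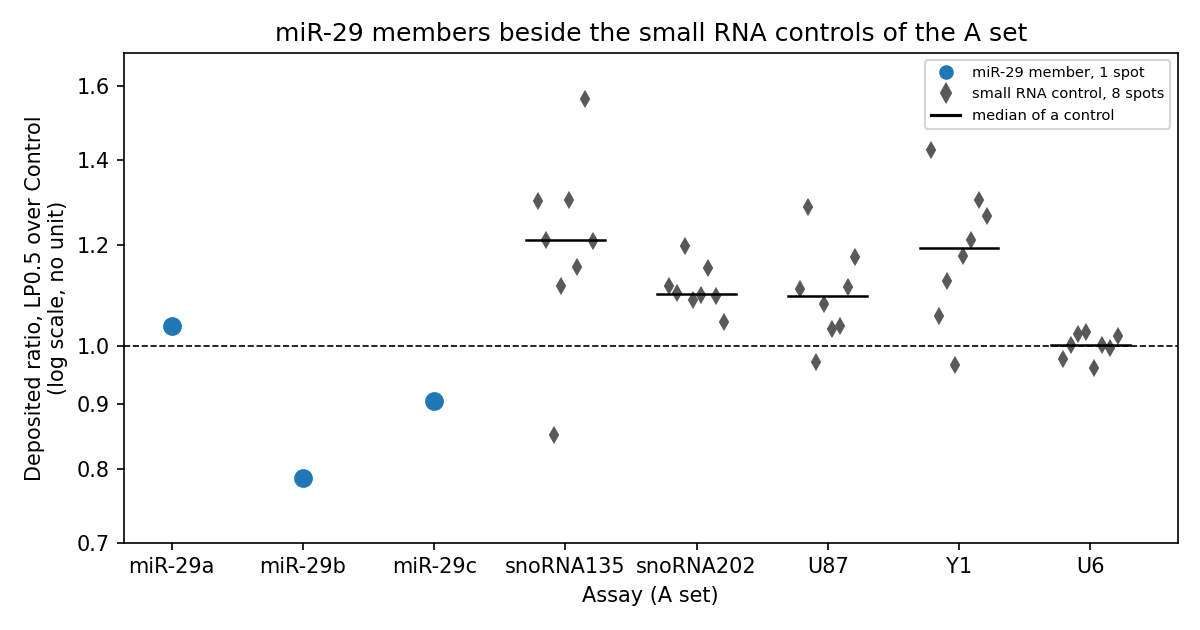
Deposited ratio of LP0.5 over Control on a log scale for the 3 members (1 spot each) and for the 8 A-set spots of each small RNA control, with the control's median as a bar. U6 spots lie between 0.961 and 1.02 and the medians of the other 4 controls between 1.09 and 1.21, while miR-29b at 0.787 is under every control spot.

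The side of 1 on which miR-29a fell depended on the reference. With the mean of snoRNA135, snoRNA202, U87 and Y1 in place of U6, every A-set value moved by -0.20 on the log2 scale. The ratios were then 0.905 for miR-29a, 0.790 for miR-29c and 0.687 for miR-29b, so 3 of 3 were below 1. Relative to the median of all A-set miRNA spots they were 1.06, 0.927 and 0.806 in the same order.

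The members also sat in different blocks of the panel. MiR-29b and miR-29c were in block A1, where the median of 42 miRNA ratios was 0.919, and miR-29a was in block B2, where the median of 38 was 0.978. In block A1 the authors' deposited table has Y1 at 1.43 and snoRNA135 at 1.30, and in block B2 it has them at 0.966 and 1.11. The other controls differed less between the blocks. U87 is listed at 1.11 in A1 and 1.08 in B2, snoRNA202 at 1.12 and 1.09, and U6 at 0.977 and 1.02. Relative to the mean of the 4 controls of its own block, miR-29b was at 0.640, which is past 1.5-fold, miR-29c at 0.736 and miR-29a at 0.978. The part of block position in the differences between members was not tested.

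**Figure D4:**
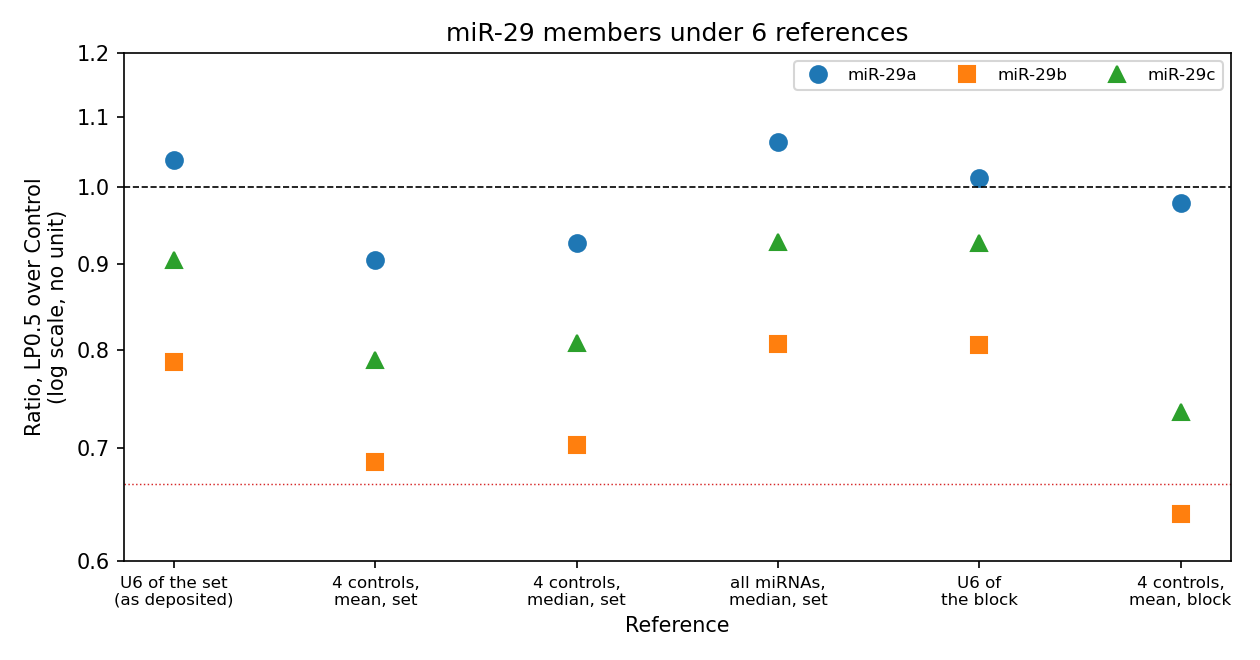
Ratio of LP0.5 over Control on a log scale for miR-29a (circles), miR-29b (squares) and miR-29c (triangles) under 6 references, from U6 as deposited on the left to the 4 other controls of the same block on the right. MiR-29a crosses 1, from 1.06 with the miRNA median to 0.905 with the mean of the 4 controls, and miR-29b passes the red dotted 1.5-fold line at 0.640 with the controls of its block.

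The starred strands, the partner strands that the same hairpins release at usually lower levels, were spread more widely and are not family members by name. Starred names of this family denote 5p strands. The 4 mouse 5p sequences of RefSeq (GRCm38.p6) are shown because none has the family seed; capitals mark bases 2 to 8.
miR-29a-5p: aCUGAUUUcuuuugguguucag
miR-29b-1-5p: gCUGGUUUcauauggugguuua
miR-29b-2-5p: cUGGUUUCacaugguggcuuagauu
miR-29c-5p: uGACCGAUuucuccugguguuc
All 5 starred assays had a ratio, all in the B set, with 3 above 1 and 2 below, beside 54.6% and 45.4% of B-set spots. With the 4 other controls of the same block as the reference the count was 2 above and 3 below: miR-29a# was at 1.09, miR-29c# at 0.930 and miR-29b# at 0.984. The block of miR-29a# holds the U87 spot that the authors' deposited table lists at 0.133. The authors' deposited table lists miR-29b-2# at 1.60 (human name), miR-29c# at 1.18 (rat name) and miR-29b# at 1.18 (mouse name). At the low end the authors' deposited table lists miR-29a# at 0.792 (human name) and miR-29b-1# at 0.149 (rat name). The name miR-29b# does not say which hairpin it reads.

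At least 1.5-fold from 1 were miR-29b-2# above and miR-29b-1# below, 2 of 5 beside 42.7% of B-set spots. MiR-29b-2# was under that limit, at 1.48, with the mean of the 4 other controls as the reference. Both are named for the passenger strands of the 2 hairpins that give the same mature miR-29b, and their ratios lay on opposite sides of 1. Each rests on 1 assay, under a human name for miR-29b-2# and a rat name for miR-29b-1#. The assay miR-29b#, which could read either hairpin by its name, was at 1.18. A difference between the hairpins is therefore not shown. Main and starred strands lay 1.31-fold apart for miR-29a and 1.31-fold apart for miR-29c, each time on opposite sides of 1 with U6 as the reference. With the mean of the 4 other controls of the set, miR-29a and miR-29a# were both below 1, at 0.905 and 0.730, and with the controls of the block miR-29c and miR-29c# were, at 0.736 and 0.930. From miR-29b its starred assays lay 1.496-fold (miR-29b#), 2.04-fold (miR-29b-2#) and 5.29-fold (miR-29b-1#) apart. Each of these comparisons crosses from the A set to the B set. In the B set the plant miRNA control, which has no mouse target, has ratios from 2.59 to 3.37 in the authors' deposited table; its part in the starred ratios was not tested. In the A set, which holds the members, the plant control had a ratio at 2 of 8 spots, which the authors' deposited table lists at 0.139 and 1.96.

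Of miRNAs known to be raised together with miR-29 in islets of prediabetic NOD mice, all 3 on the list were below 1 by the heading's direction, beside 52.3% of A-set spots. The 3 were chosen with earlier results of these data known, and other miRNAs raised in such islets or by cytokines were not counted. The authors' deposited table has 0.842 for miR-146a, a brake on inflammatory signalling, and 0.822 for miR-21, which cytokines induce in islets. For the p53-induced miR-34a the authors' deposited table has 0.679. None of the 3 was at least 1.5-fold from 1, beside 28.9% of A-set spots, and their median was 0.822, under the A-set median of 0.976. With the ratio turned, all 3 would be above 1, with a median of 1.22 beside an A-set median of 1.02.

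The listed miRNAs that, like miR-29, have a DNA methyltransferase among their known targets were all below 1 by the heading's direction. The count was 6 of 6, beside 49.1% of all miRNA spots. Their median ratio was 0.685, beside 1.01 over the 566 miRNA spots. Most of the 6 are related sequences and not replicates, so the count is not one of separate results. This list was chosen with earlier results of these data known, and other miRNAs with such a target were not counted. With the ratio turned, 6 of 6 would be above 1, with a median of 1.46 beside 0.991. The authors' deposited table gives 0.946 for miR-148a, 0.841 for miR-148b and 0.696 for miR-152, which share a seed. For miR-101a, assayed under the name miR-101, the authors' deposited table gives 0.674, and for its relative miR-101b it gives 0.663. MiR-143 counted as below 1 through the mean of its 2 assays on the log2 scale, which the authors' deposited table lists at 0.190 and 1.11. At least 1.5-fold below 1 were miR-101b and, by that mean, miR-143, beside 16.8% of all miRNA spots. MiR-152 is known as one of the miRNAs this study reports on, so its value is not independent.

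Markers of the cells an islet preparation can hold all had a ratio, though their levels were not analysed here. Of the endocrine markers, the authors' deposited table has miR-375 at 1.17 and miR-7a at 0.918. Taking a pair of assays as its mean on the log2 scale, the 3 acinar markers ran from 0.726 to 1.32 and the 2 endothelial ones from 0.647 to 0.975. The 5 fibroblast and stellate markers ran from 0.403 to 2.66 and the 5 blood markers from 0.305 to 1.78. MiR-29 is also abundant in fibroblasts, and the part of other cell types in its ratios was not tested.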

How the data were processed

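Per the labels' protocols, RNA was isolated with the MirVana kit and read with FAM-labelled TaqMan probes. The submitters' processing notes name limma without a version or role. Detection limit, averaging of samples and normalization are not stated in the sources used. The authors deposited 1 linear ratio (fold value) per spot, headed L.05 vs Control per the file headers. A second deposited table names the spots; its 12 columns of per-sample values match no sample label and were not used, so limma, the tests over samples, levels and correlations with other assays were not run, and amplification cycles were not analysed. The value of U6 as reference was found from the values.

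Ratios were converted to log2 and compared by rank, count and fold, with 1.5-fold as a limit taken from an earlier description of these data. The A and B sets follow the block number in the spot code. Members, lists and the rule for named miRNAs (all members, their starred strands, the small RNA controls, the members of the lists and the nearest ratios) were chosen with earlier results of these data known. For the nearest ratios, order within the A set was taken, a choice made after the files were seen. Panel names were matched without species prefix; miR-101a was taken from miR-101, miR-7a from miR-7, miR-126-5p from miR-126#. Re-referencing was tested on simulated data. Alternatives covered the reference and the fold limit. Python 3.11.15, numpy 2.4.6, pandas 2.3.3 and matplotlib 3.10.9 were used.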

Additional observations from a re-analysis of the deposited data

How the results depend on the processing

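On the log2 scale miR-29b was at -0.35, miR-29c at -0.14 and miR-29a at 0.05 with U6 as the reference. With the mean of the 4 other small RNA controls they were at -0.54, -0.34 and -0.14, and with the median of those controls at -0.51, -0.31 and -0.11. With the 4 controls of the same block, added after the data were seen, miR-29b was at -0.64, miR-29c at -0.44 and miR-29a at -0.03. Under these 3 references 0 members were above 1 and 3 below, against 1 and 2 with U6. By construction a change of reference moves all spots of a set or block alike; the cause of the offset between U6 and the other controls was not tested. With the median of all miRNA spots of the set, each member's shift was under 0.13 on the log2 scale. The same held with the U6 spot of the same block (added after the data were seen). This 0.13 is the SD of the A-set control spots, averaged over the 5 controls.

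Over all miRNA spots 105 were at least 1.5-fold above 1 and 95 below. With the mean of the 4 controls the counts were 91 and 130, so that more lay below than above, and they were 89 and 127 with the median of those controls, 102 and 98 with the miRNA median, 106 and 96 with U6 of the block, and 94 and 133 with the 4 controls of the block. They were 70 and 67 at 2-fold, and 40 and 48 in the A set alone, a smaller set by construction. No mouse-named assay of a member exists on the panel, so that alternative gave no value. Leaving out replicates and a limit on late cycles were not run, since they need per-sample columns. No paired analysis was possible because the columns used carry no replicate numbers. Depth has no counterpart here, since cycles were not analysed.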
